A study of Mus musculus with 16 samples.

Results

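The genes described here are *Tnf*, its receptor genes *Tnfrsf1a* and *Tnfrsf1b*, and 7 genes of the NF-κB response that TNF starts: *Nfkbia*, *Tnfaip3*, *Nfkb1*, *Nfkb2*, *Relb*, *Birc3* and *Traf1*. They were chosen by name as the cytokine, its receptors and the feedback genes of the pathway, and the rule uses no measured value, although earlier results of these data were known when it was written. They are 10 of the 26382 genes of the table, and all 10 were abundant enough to be tested. The samples were bulk RNA from hamstring muscle of C57BL/6 mice, taken on day 14 after intramuscular injection at 8 to 10 weeks of age, with 16 libraries from 9 mice. The general protocol in the labels gives 100 μL per mouse, as 50 μL per side, of recombinant murine histidyl-tRNA synthetase (HRS), the antigen of the Jo-1 autoantibody, at 3 to 5 mg/mL.

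By the sample titles, 5 mice (m862 to m866) received HRS in the left leg and PBS in the right leg, giving 5 HRS legs and 5 PBS legs. Another pair of animals (m867, m868), injected with PBS on both sides, gave 4 PBS-only libraries. The last 2 mice (m860 and m861) gave 1 library each, of no stated side, and are called HRS-MBP because their titles name a fusion of the protein with MBP at 2 to 3 mg/mL, although their treatment label is HRS. All mice were of the same strain with no engineered allele in the labels. The study's methods describe HRS in both hamstrings, which differs from the titles of m862 to m866, and the grouping here rests on the titles together with the treatment labels, which name a PBS control for the right legs. Since each of these 5 mice gave both an HRS leg and a PBS leg, the PBS leg belongs to an animal that had also received HRS, and the PBS-only mice are the controls with none.

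TNF is made mainly by macrophages and T cells and acts through TNFR1, the product of *Tnfrsf1a* found on most cells, and TNFR2, the product of *Tnfrsf1b* found mostly on leukocytes and endothelium. Its receptors free NF-κB dimers from the inhibitor IκBα, and the dimers then switch on their own inhibitors, among them IκBα itself (*Nfkbia*) and the ubiquitin-editing enzyme A20 (*Tnfaip3*), which shut the signal off again. The same dimers also switch on the precursor genes *Nfkb1* and *Nfkb2*, the subunit gene *Relb*, and the genes of the receptor-bound proteins cIAP2 (*Birc3*) and TRAF1 (*Traf1*). In muscle, TNF is known from inflammation, regeneration and wasting.

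Values are normalized counts as the authors deposited them. Their totals were 726797 to 1252358 per library, so that each library carried a scaling factor of its own. From the smallest step between low values, the implied depth was 37.3 to 73.9 M reads in the HRS legs, 24.7 to 72.8 M in the PBS legs, 8.6 to 40.7 M in PBS-only mice and 37.3 to 39.6 M in HRS-MBP mice. The HRS libraries of m864 and m866 stood apart among the HRS legs. The macrophage markers (*Cd68*, *Adgre1*, *Csf1r*, *Itgam*, *Cd14* and *Lyz2*) summed to 4949 in the HRS leg of m864 and to 988.5 in that of m866, the highest and the lowest of the 5. The muscle fibre markers (*Acta1*, *Ckm*, *Myh4*, *Ttn* and *Mb*) summed to 30770 in the HRS leg of m864, and to 131600 in that of m866, where the PBS legs ranged from 92450 to 150200. Results are therefore also given without these libraries. All 16 libraries held the fibre markers of the labelled tissue.

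The first question was whether the genes differed between an HRS leg and the PBS leg of the same mouse. All 10 had higher means in the HRS legs, and 9 of 10 were called higher, against 16.9% of the 16414 tested genes called higher in that comparison. A gene was called at a limma adjusted p below 0.05 with a log2 fold change beyond 1 in either direction, on the scale of log2(normalized count + 0.5). The gene not called was *Nfkb1*, which passed the p threshold but not the fold threshold. The median log2 fold change was 1.72 over the 10 genes and 0.08 over all tested genes. Against PBS-only mice the same 9 were called higher, where 18.9% of tested genes were, with a median of 1.77 over the 10 genes and 0.15 over all genes. These comparisons share the HRS legs. In bulk muscle, a difference in the number of cells of a type and a difference in RNA per cell cannot be told apart.

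The same libraries differed in cell type markers. In the HRS legs the macrophage markers summed to 988.5 to 4949, against 85.7 to 247.2 in the PBS legs, 86.4 to 190.2 in PBS-only mice and 3885 to 4234 in HRS-MBP mice, and 6 of 6 were called higher in the HRS legs than in the PBS legs. T cell markers (*Cd3d*, *Cd3e*, *Cd3g*, *Cd4*, *Cd8a* and *Lck*) summed to 16.8 to 116 in the HRS legs and to 1.28 to 3.28 in the PBS legs, and 6 of 6 were called higher. For B cells the sums were 3.93 to 21.7 and 0.588 to 1.39, and for neutrophils 10.3 to 119 and 1.02 to 3.51, with 4 of 4 and 5 of 5 called higher. Fibroblast markers summed to 1005 to 9713 and 532 to 1054 in the same order, with 2 of 4 called higher. Endothelial markers summed to 267.3 to 313.2 in the HRS legs and 257 to 306.9 in the PBS legs, with 2 of 4 at an adjusted p under 0.05 and none of the 4 past the fold threshold. Muscle fibre markers went the other way, with sums of 30770 to 131600 in the HRS legs and 92450 to 150200 in the PBS legs, and 2 of 5 (*Ckm* and *Ttn*) called lower. Mitochondrial genes held 3.41% to 6.29% of the total in 4 HRS legs and 11.1% in that of m866, against 9.69% to 11.2% in the PBS legs. No marker of these lists was at 0 in every library of a group. The part of these differences in the values below was not tested.

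*Tnf* (chr17:35199381-35202007 of GRCm38, minus strand), the gene of the cytokine, had the largest leg ratio of the 10 genes in each of the 5 mice when no pseudocount was used. With the pseudocount of 0.5 it was the largest in m866 only. *Traf1* was then above it in m862 and m864, *Tnfrsf1b* in m863, and both in m865. Values of m862 to m866 are given in this order throughout. *Tnf* stood at 6.57, 6.45, 19.5, 4.95 and 4.55 normalized counts in the HRS legs and at 0.128, 0.132, 0.600, 0.0588 and 0.189 in the PBS legs. The groups did not overlap, the HRS leg of m864 stood well above the other 4, and the PBS leg of m864 was also the highest PBS leg. PBS-only mice had 0.243 and 0.0568 in the left and right legs of m867, and 0.391 and 0.485 in those of m868. These low values rest on few reads, an implied 2 to 13 in the PBS legs and 2 to 6 in PBS-only mice, against 146 to 1092 in the HRS legs. *Tnf* averaged 0.222 in the PBS legs and 0.294 in PBS-only mice. It thus passed the filter for testing, a mean of at least 0.5 over all libraries, only through the HRS and HRS-MBP libraries.

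The leg-to-leg ratio of *Tnf* was accordingly imprecise, though above 1 in each mouse. It was 51.3 in m862 (95% exact interval from the implied reads 19.9 to 189), 48.9 in m863 (24.6 to 114), 32.5 in m864 (18.9 to 61.2), 84.1 in m865 (23.1 to 698) and 24.1 in m866 (11.4 to 61.1). The intervals cover counting error only, and those of all 5 mice overlapped. The limma log2 fold change was 3.46 (SE 0.32, adjusted p = 2.1e-06), which understates a ratio against such low values because of the pseudocount. Over the alternatives it ran from 2.08 with a pseudocount of 2 to 5.87 under limma-voom. Against PBS-only mice the log2 fold change was 3.31 in the reported fit (SE 0.34, adjusted p = 3.7e-06).

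**Figure D1:**
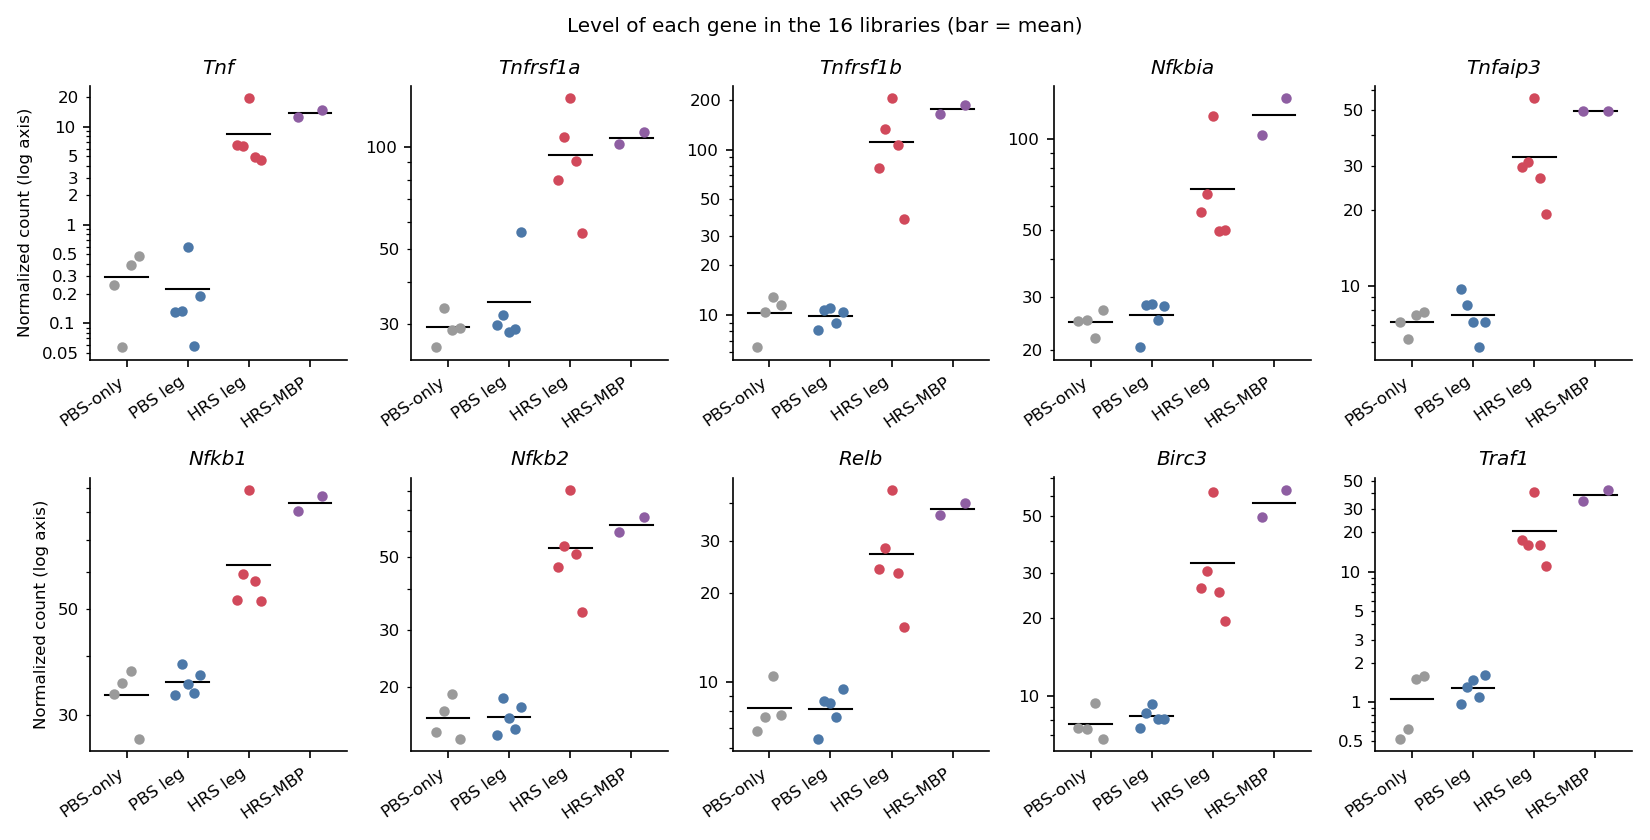
Normalized counts (log axis, one scale per panel) of the 10 genes in the 4 PBS-only, 5 PBS leg, 5 HRS leg and 2 HRS-MBP libraries; each point is a library and each bar a group mean. The HRS legs lie above all 9 PBS libraries in every panel but that of *Tnfrsf1a*, where 1 PBS leg at 56 reaches the lowest HRS leg at 55.6. The share of all tested genes with such a separation was not counted.

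Of the receptors, *Tnfrsf1b* (chr4:145213463-145246870, minus strand), the gene of the inducible receptor TNFR2, moved further than *Tnfrsf1a*. Its values were 77.7, 134, 204, 107 and 37.9 in the HRS legs and 8.08, 10.7, 11, 8.94 and 10.4 in the PBS legs. The PBS legs lay close together and all HRS legs were above them, but the HRS legs differed 5.39-fold among themselves, the widest spread of the 10 genes. The log2 fold change was 3.25 (SE 0.33, adjusted p = 3.5e-06), or 2.98 without the HRS leg of m864 and 3.59 without that of m866. PBS-only mice had 6.39, 10.4, 12.8 and 11.5, in the order left and right leg of m867, then of m868.

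*Tnfrsf1a* (chr6:125349362-125362484, plus strand), the gene of the widely expressed receptor TNFR1, had 80, 107, 139, 91.2 and 55.6 in the HRS legs and 29.7, 31.8, 28.4, 29 and 56 in the PBS legs. The groups met in m866, whose legs had the same level (ratio 0.993), while the other 4 mice had ratios of 2.69 to 4.89. The PBS leg of m866 was the highest PBS library for this gene, and it also had the lowest fibre marker sum of the PBS legs (92450), with a macrophage marker sum of 219.7. The fibroblast markers of m866 summed to 1005 in the HRS leg and 1039 in the PBS leg. The log2 fold change was 1.41 (SE 0.22, adjusted p = 0.00013), and 1.58 without the HRS leg of m866. PBS-only mice had 25.7 to 33.6, and the log2 fold change against them was 1.61 (SE 0.23, adjusted p = 6.2e-05).

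The receptor genes were set against each other within a library, which cancels the scaling of that library. Their ratio shifted by nearly the same amount in each mouse. The log2 ratio of *Tnfrsf1b* to *Tnfrsf1a* averaged -1.74 ± 0.40 (SD, n = 5) in the PBS legs and 0.10 ± 0.42 (SD, n = 5) in the HRS legs, with -1.50 ± 0.35 (SD, n = 4) in PBS-only libraries and 0.69 and 0.75 in the HRS-MBP libraries. Within mice the HRS leg exceeded the PBS leg in 5 of 5, by 1.84 ± 0.04 (SD, n = 5; p = 0.062 in an exact sign-flip test on both sides, and no smaller p can be had from 5 mice). The difference ranged from 1.78 to 1.88 and so included m866, where the legs had nearly the same level of *Tnfrsf1a*. Against PBS-only libraries the ratio was higher by 1.61 (exact permutation test, two-sided, 5 against 4 libraries, p = 0.00794, the smallest possible). The 4 PBS-only libraries come from 2 mice and are not independent animals.

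**Figure D2:**
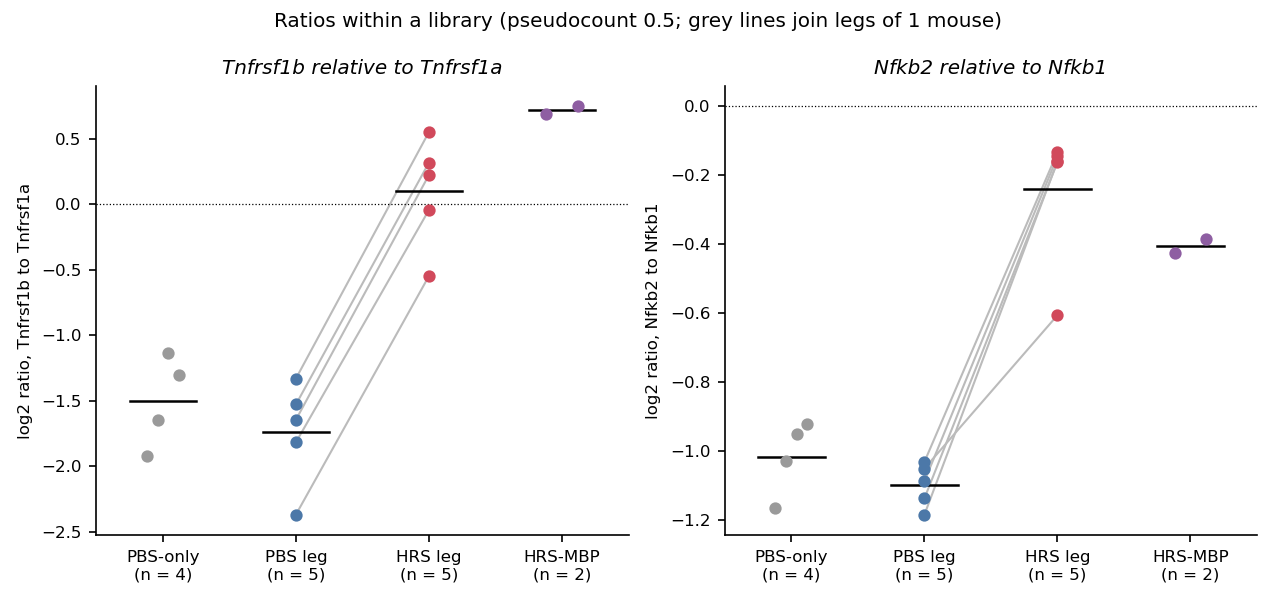
Log2 ratio of *Tnfrsf1b* to *Tnfrsf1a* (left) and of *Nfkb2* to *Nfkb1* (right) in each library, by group, with a pseudocount of 0.5; bars are group means and grey lines join the legs of 1 mouse. The receptor lines run parallel, with rises of 1.78 to 1.88, whereas the *Nfkb2* to *Nfkb1* ratio of the m866 HRS leg stays at -0.61, below the other 4.

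The genes of the NF-κB subunits rose unequally. *Nfkb1* (chr3:135584655-135691547, minus strand) encodes p105, the precursor of p50, and had 52.2, 59.4, 89, 57.3 and 52 in the HRS legs and 33.1, 38.4, 34.9, 33.4 and 36.5 in the PBS legs. Every HRS leg was above all 9 PBS libraries, yet the log2 fold change of 0.78 (SE 0.13, adjusted p = 0.00032) was the smallest of the 10 and below the fold threshold. Against PBS-only mice it was 0.87 (SE 0.14, adjusted p = 0.00018). The call depended on scaling: with each library rescaled to the same total, *Nfkb1* reached 1.19 against PBS legs and 1.26 against PBS-only mice and was called higher, and limma-voom gave 1.21 and 1.26. Those scalings also moved the median of all tested genes between the legs from 0.08 to 0.45 and 0.52. The gene overlaps *Gm43430* on the same strand, which averaged 0.0694.

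*Nfkb2* (chr19:46304320-46312385, plus strand), the gene of p100, which gives p52 in the noncanonical arm of the pathway, had 46.7, 54.1, 80.4, 51.1 and 34 in the HRS legs. The PBS legs had 14.3, 18.5, 16.1, 14.9 and 17.3, and PBS-only mice 13.9 to 19. The groups did not overlap, and *Nfkb2* had a log2 fold change of 1.63 (SE 0.17, adjusted p = 4.9e-06). *Nfkb2* overlaps *4833438C02Rik* and *Psd* on the opposite strand, with averages of 2.68 and 2.45 normalized counts. Whether the counting used strand is not given in the sources used here, and both averages are below the lowest *Nfkb2* value of 13.9.

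The log2 ratio of *Nfkb2* to *Nfkb1* rose from -1.10 ± 0.06 (SD, n = 5) in the PBS legs to -0.24 ± 0.20 (SD, n = 5) in the HRS legs. It was higher in 5 of 5 mice, by 0.86 ± 0.24 (SD, n = 5; p = 0.062 by the same exact test). The smallest difference was 0.45 in m866, and without that mouse the mean was 0.96. Against the PBS-only libraries, at -1.02 ± 0.11 (SD, n = 4), the difference was 0.78 (exact permutation test, two-sided, p = 0.0159). Here too the PBS-only libraries come from 2 mice and are not independent animals.

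*Relb* (chr7:19606217-19629438, minus strand), the gene of the partner of p52, had 15.3 to 44.4 in the HRS legs, with a median of 24, and 6.47 to 9.48 in the PBS legs, with a median of 8.54. PBS-only mice had 6.87 to 10.5. The HRS legs did not overlap with the PBS libraries, and the leg of m866 was the nearest to them. Its log2 fold change was 1.59 (SE 0.21, adjusted p = 3.3e-05), close to that of *Nfkb2*.

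The inhibitors that close the loop were both higher. *Nfkbia* (chr12:55489410-55492647, minus strand) had 57.1, 65.6, 119, 49.7 and 49.9 in the HRS legs and 20.4, 28.2, 28.3, 25 and 28 in the PBS legs. The 4 HRS legs other than m864 lay between 49.7 and 65.6, well clear of the PBS legs and of the PBS-only range of 21.9 to 27. The log2 fold change was 1.31 (SE 0.20, adjusted p = 0.0001), or 1.09 without the HRS leg of m864.

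*Tnfaip3* (chr10:19000910-19015657, minus strand) had 29.8, 31.2, 55.7, 26.8 and 19.3 in the HRS legs and 9.71, 8.4, 7.16, 5.71 and 7.16 in the PBS legs. All HRS legs were above the PBS libraries, of which the highest was the PBS leg of m862 at 9.71. Limma gave a log2 fold change of 1.96 (SE 0.21, adjusted p = 6e-06), and 2.02 (SE 0.22, adjusted p = 7.1e-06) against PBS-only mice, where the levels were 6.14 to 7.88.

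*Traf1* (chr2:34941750-34961772, minus strand), the gene of an adaptor that binds TRAF2 and cIAP proteins at TNFR2, was near the bottom of the range in PBS muscle. It had 0.961, 1.32, 1.48, 1.09 and 1.62 in the PBS legs, resting on an implied 30 to 80 reads, and 17.6, 16, 41.2, 15.9 and 11.1 in the HRS legs. The leg ratio was 6.88 to 27.9, and every HRS leg stood above every PBS library. The log2 fold change was 3.41 (SE 0.29, adjusted p = 1.9e-06).

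*Birc3* (chr9:7848699-7873186, minus strand), the gene of the ubiquitin ligase cIAP2, had 26.2, 30.6, 62.2, 25.3 and 19.6 in the HRS legs. The PBS legs had 7.5 to 9.28 and PBS-only mice 6.8 to 9.39. The PBS libraries were tight and the HRS legs all above them, with m864 far above the other 4. Its log2 fold change was 1.80 (SE 0.22, adjusted p = 2e-05).

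**Figure D3:**
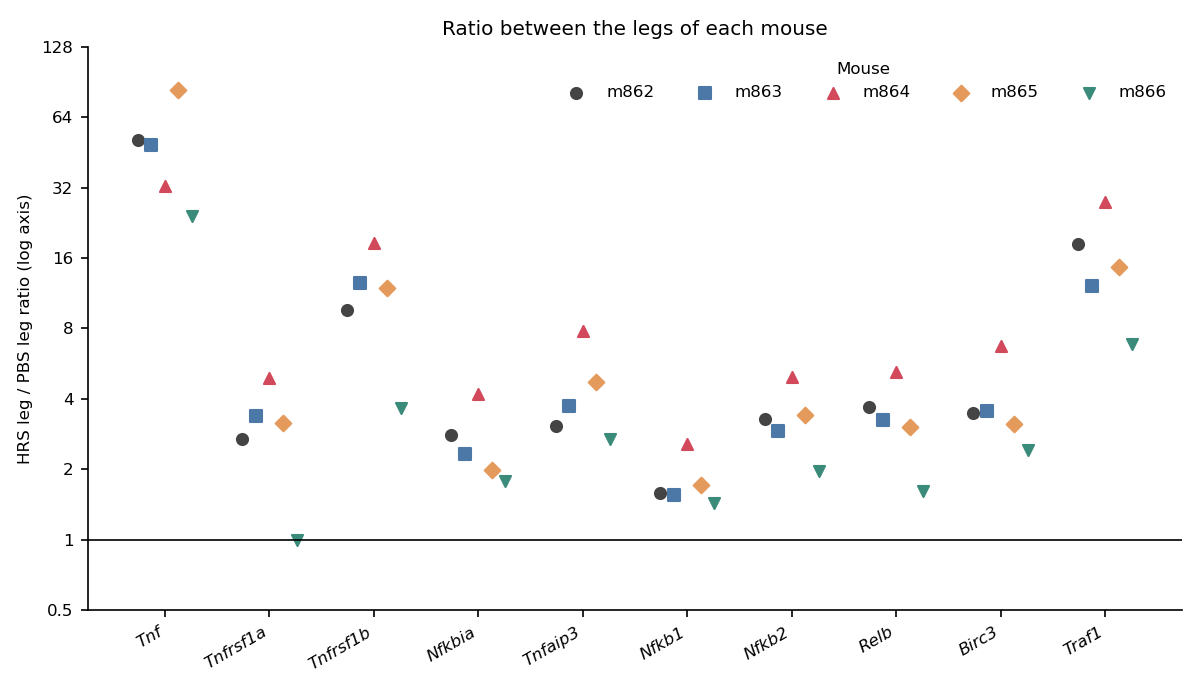
Ratio of the HRS leg to the PBS leg of the same mouse (log axis) for the 10 genes, one symbol per mouse. All ratios exceed 1 except that of *Tnfrsf1a* in m866 (0.993), and m864 has the highest ratio in every gene but *Tnf*.

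Across the mice, 9 of 10 genes had a leg ratio above 1 in all 5 animals (p = 0.062 for each in the exact two-sided sign-flip test, unadjusted over the 10 genes), and *Tnfrsf1a* in 4 (p = 0.12). This count was not made over all tested genes. Of those, 65.4% were at an unadjusted limma p under 0.05 between the legs, in either direction. The HRS legs at the ends of the range were nearly the same for each gene. The leg of m864 was the highest in 10 of 10 genes, and that of m866 the lowest in 9 of 10, the exception being *Nfkbia*, where m865 had 49.7 and m866 had 49.9. The order of the macrophage marker sums had the same ends. Whether the legs of m864 and m866 are also the ends for most tested genes was not counted. Without either of these HRS legs, 9 of 10 genes were still called higher. The smallest log2 fold change among the 9 was then 1.09 (*Nfkbia*, without m864) or 1.40 (*Nfkbia*, without m866). In exact two-sided permutation tests of HRS legs against PBS-only libraries, p was 0.00794 for 9 genes and 0.0159 for *Relb*, unadjusted over the 10 genes. These tests treat the 4 PBS-only libraries as separate although they come from 2 mice, so the p-values overstate the evidence.

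The PBS legs and the PBS-only mice were compared to see whether HRS in the other leg was accompanied by a change. None of the 10 genes was called by limma, and limma-voom called 0. None was at an unadjusted limma p under 0.05 (0.388 to 0.992), where only 5.5% of tested genes were. In this comparison 0.00609% of tested genes were called, which is 1 gene. Log2 fold changes ran from -0.15 to 0.26, and the ranges of these groups overlapped in 10 of 10 genes, a count not made over all tested genes. The 95% intervals still left room for differences, from -0.87 to 0.57 for *Tnf* and from -0.39 to 0.92 for *Traf1*, the genes with the fewest reads, but only from -0.21 to 0.40 for *Nfkb1*. These intervals treat the 4 PBS-only libraries as independent, although they come from 2 mice. For *Traf1* the log2 fold change was -0.20 without m867 and 0.73 without m868.

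The HRS-MBP libraries were compared with PBS-only mice and with the HRS legs. All 10 genes were called higher than in PBS-only mice, where 20.7% of tested genes were called higher. *Tnf* had 12.6 and 15 in m860 and m861, *Tnfrsf1b* 165 and 186, and *Traf1* 35 and 42.4. Their log2 fold changes were 4.20, 4.07 and 4.72, with adjusted p of 4.2e-06, 6.2e-06 and 1.7e-06. That of *Tnf* ran from 2.78 with a pseudocount of 2 to 6.58 under limma-voom. *Nfkb1*, at 80.5 and 86.6, had a log2 fold change of 1.33 (adjusted p = 4.1e-05) and was thus past the fold threshold here. The other 6 genes had log2 fold changes of 1.85 (*Tnfrsf1a*) to 2.78 (*Birc3*). In the same libraries T cell markers summed to 93.6 and 128.2 (1.05 to 2.18 in PBS-only mice), B cell markers to 14.9 and 42.9 (0.261 to 1.17), neutrophil markers to 69.5 and 68.9 (0.537 to 2.55) and muscle fibre markers to 52970 and 51240 (113200 to 143900). Fibroblast markers summed to 5204 and 2274 (515.9 to 902.6), with 1 of 4 called higher (*Col1a1*, 2.92). Endothelial marker sums overlapped, at 261.1 and 261.9 against 247.1 to 290.5, with 1 of 4 markers called lower (*Kdr*, -1.12) and 0 higher. Mitochondrial genes held 5.94% and 6.98% of the total, against 11.3% to 13.1%. Their part was not tested.

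Against the HRS legs, 0 of 10 genes were called by limma, where 0.463% of tested genes were. All 10 had higher means in HRS-MBP, by 0.23 (*Tnfrsf1a*) to 1.05 (*Traf1*) on the log2 scale, and 5 were at an unadjusted p under 0.05, as were 14.4% of tested genes, with adjusted p of 0.154 to 0.738 over the 10 genes. Limma-voom also called 0. In the same comparison the median log2 difference was 0.77 over the 10 genes, 0.89 over the macrophage markers, 1.33 over the T cell markers, 1.61 over the B cell markers and -0.65 over the neutrophil markers, and *Ptprc* had 0.90. None of these markers was called, and their part was not tested. The result turned on 1 library. Without the HRS leg of m864, 4 genes were called higher in HRS-MBP, namely *Tnf* (log2 fold change 1.23), *Nfkbia* (1.10), *Birc3* (1.14) and *Traf1* (1.34). Calls over all tested genes rose with them, from 76 to 590. The 2 HRS-MBP libraries were above the other 4 HRS legs in 9 of 10 genes, all but *Tnfrsf1a*, and the HRS leg of m864 was above both HRS-MBP libraries in 7 of 10, all but *Nfkbia*, *Birc3* and *Traf1*. Ranges of these groups overlapped in 10 of 10 genes. Such counts of libraries were not made over all tested genes, so they do not set these 10 genes apart.

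**Figure D4:**
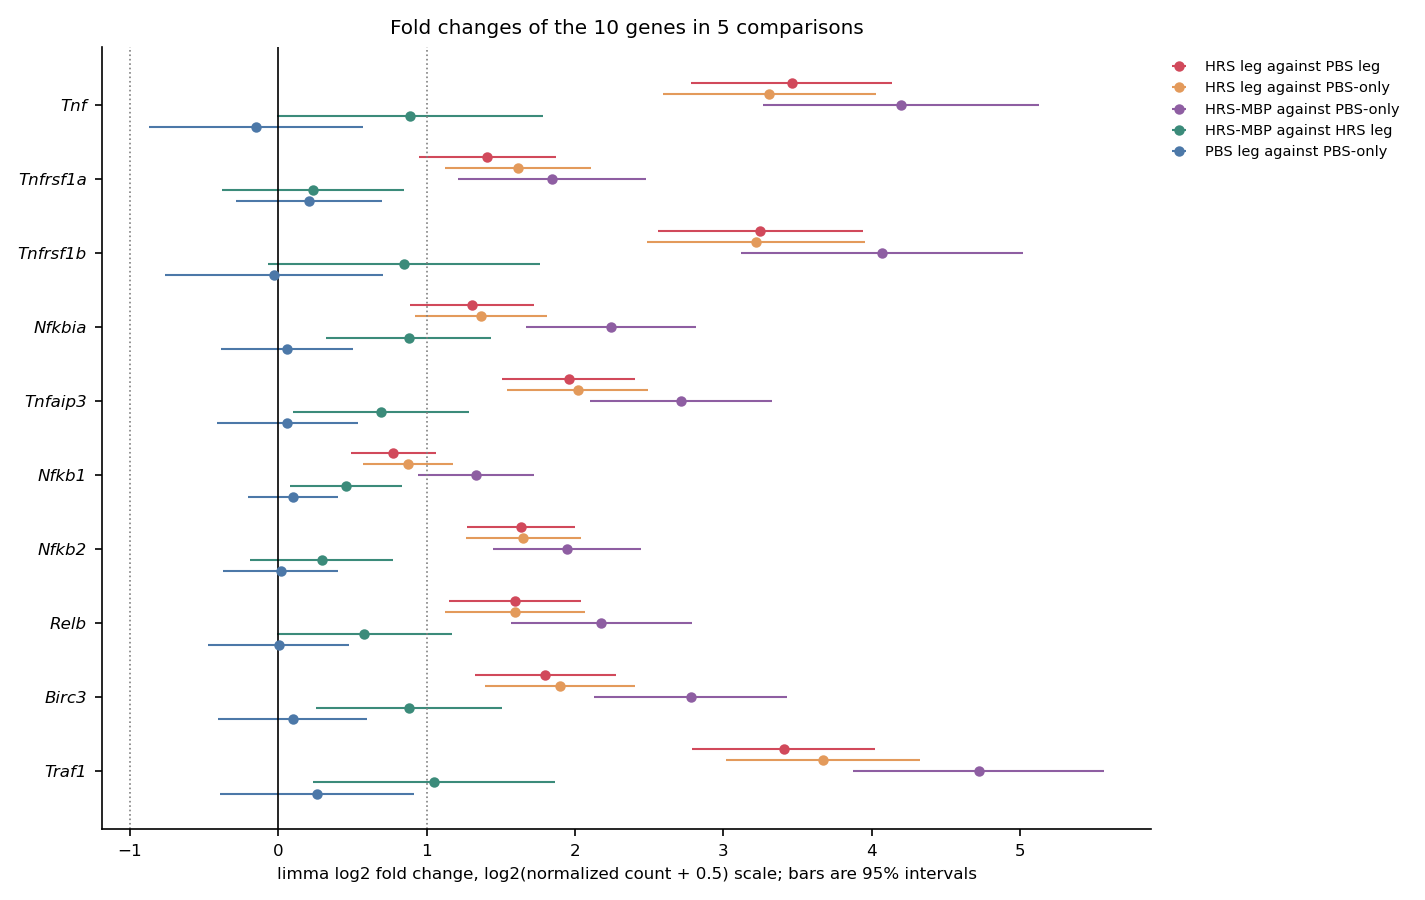
Limma log2 fold changes of the 10 genes with 95% intervals in 5 comparisons; dotted lines mark the fold threshold of 1. Points for HRS or HRS-MBP against PBS lie to the right, from 0.78 (*Nfkb1*) to 4.72 (*Traf1*), and those of PBS legs against PBS-only mice straddle 0.

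Levels of different genes were compared per kilobase of annotated exon. Per length, the PBS legs were led by *Nfkbia* at 16.1 normalized counts per kilobase and *Tnfrsf1a* at 13.5, with *Nfkb2* at 3.54, *Nfkb1* at 2.92 and *Tnfrsf1b* at 2.57 behind them, and *Traf1* (0.146) and *Tnf* (0.135) last. In the HRS legs *Nfkbia* (42.4) and *Tnfrsf1a* (36.5) again led, now with *Tnfrsf1b* (29.4) next to them and *Nfkb2* (11.6) after. *Tnf* reached 5.13 per kilobase, close to *Nfkb1* at 5.14. The exon lengths join all annotated isoforms, so genes with long minor isoforms are understated. Spread among the HRS legs, given above, exceeds the gaps between the first 3 of these levels.

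The 10 genes were also set beside *Ptprc*, the gene of the pan-leukocyte protein CD45, which had 58 to 279 in the HRS legs and 3.62 to 9.47 in the PBS legs and a log2 fold change of 3.93. Dividing each gene's leg ratio by that of *Ptprc*, with no pseudocount, separated the members. *Tnf* rose more than *Ptprc* in 5 of 5 mice, with a median relative ratio of 3.79 and a lowest of 1.10 in m864. On the scale with the pseudocount, however, *Tnf* rose less than *Ptprc* in 4 of 5 mice, so its direction depends on values of a few reads. *Traf1* had relative ratios of 0.611 to 1.08 and was higher in 2 of 5 mice, or in 0 of 5 with the pseudocount, and *Tnfrsf1b* was near it (0.321 to 1.05, higher in 1 of 5). The other 7 genes had relative ratios below 1 in 5 of 5 mice, with medians from 0.0987 (*Nfkb1*) to 0.271 (*Tnfaip3*). These are descriptions with no test.

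Other genes of the pathway were taken from 8 lists by role, with 96 of 106 genes tested. Testing needed a mean of at least 0.5 over all 16 libraries. A gene below 0.5 in PBS muscle, such as *Ltb* (0.406 in the PBS legs), was thus tested only through its HRS or HRS-MBP values. The counts called higher are in part tied to that filter, as are the shares over all tested genes. Between the legs, 50 of 96 were called higher and 0 lower, with a median log2 fold change of 1.14. Against PBS-only mice 55 were higher, in HRS-MBP against PBS-only mice 63, and none was lower. Over all tested genes the shares called higher were 16.9%, 18.9% and 20.7% in these comparisons. By role, 7 of 10 TNF superfamily ligands were called higher between the legs, led by *Ltb* (lymphotoxin β, which signals to the noncanonical arm, 3.29). Among the receptors, 11 of 19 were called higher, led by *Cd40* (the costimulatory receptor of B cells and macrophages, 3.17). The sheddase gene *Adam17* (1.24), whose product releases TNF from the cell surface, was the 1 called of 4 genes of TNF release, a share near that of all tested genes.

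Of the adaptors and ubiquitin enzymes 2 of 15 were called, close to the share of all tested genes, with a median of 0.30, led by *Ripk1* (the receptor-bound kinase of the TNFR1 complex, 1.61), and of the kinases 2 of 8, also near that share, led by *Ikbke* (IKKε, 3.83). The remaining subunit genes *Rela* (0.82, adjusted p = 6.9e-05) and *Rel* (0.71, adjusted p = 0.0018) passed the p threshold but, like *Nfkb1*, not the fold threshold. Of the other inhibitors and feedback genes 9 of 17 were called, led by *Nfkbie* (IκBε, 3.38). *Nfkbib*, the gene of IκBβ, singled out after its value was seen, had -0.26 (adjusted p = 0.102). The target genes moved most, with 18 of 21 called and a median of 2.47, led by *Bcl2a1b* (an anti-apoptotic BCL2 relative, 3.96), whose near-identical copies may share reads. In HRS-MBP against HRS legs 1 of 96 was called, *Tnfrsf13c* (the BAFF receptor of B cells, 1.77, adjusted p = 0.0495), also named after its value was seen, beside B cell marker sums of 14.9 and 42.9 in HRS-MBP.

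**Figure D5:**
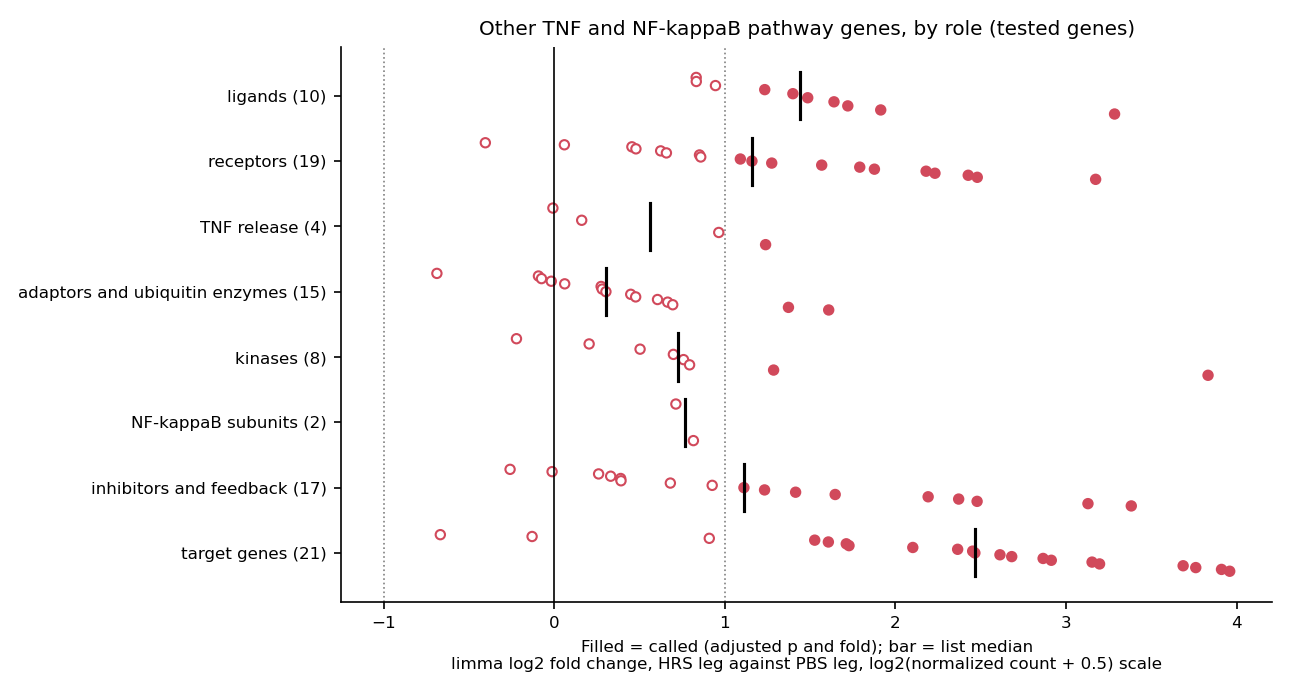
Limma log2 fold changes, HRS legs against PBS legs, of the 96 tested pathway genes by role; filled points were called, open points were not, and bars are list medians. Medians are 0.30 for adaptors and ubiquitin enzymes and 2.47 for target genes, and no called gene lies to the left of 0.

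The genes whose pattern over the 16 libraries was most like that of *Tnf* were *Itgal* (the αL integrin of leukocytes, Pearson r = 0.996 on the log2 scale), *Calhm6* (0.995) and *Fcgr4* (an Fc receptor of myeloid cells, 0.994). For *Tnfrsf1b* they included *Vav1* (a signalling protein of haematopoietic cells) and *Susd3*, both at 0.996. For *Nfkbia* they were *Pik3r6* (0.994), *Gpr141* (0.991) and *Tarm1* (0.99). Such values are a description, since the libraries fall into PBS and HRS groups that alone give a high r.

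NF-κB dimers bind the κB consensus, a motif of 10 bases, and the members' promoters were searched for it on both strands. RefSeq windows (GRCm38.p6) of 250 bases before to 50 after the start were at hand for 8 of the 10 genes, and *Nfkb1* and *Relb* had no entry. A match was found in 3 of 8 genes (*Nfkbia*, *Tnfaip3* and *Nfkb2*), against 9.55% of 27025 genes with a window, and in 5 of 11 member windows against 8.46% of 32851 windows. The stretches that hold the matches nearest the start are shown up to the base before the start, read on the strand of the gene, with the matches in capitals. They are chr12:55492648-55492747 for *Nfkbia*, chr10:19015411-19015560 for *Tnfaip3* and chr19:46304637-46304736 for *Nfkb2*.
Nfkbia: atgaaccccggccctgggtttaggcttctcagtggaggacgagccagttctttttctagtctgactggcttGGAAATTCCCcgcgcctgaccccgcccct
Tnfaip3: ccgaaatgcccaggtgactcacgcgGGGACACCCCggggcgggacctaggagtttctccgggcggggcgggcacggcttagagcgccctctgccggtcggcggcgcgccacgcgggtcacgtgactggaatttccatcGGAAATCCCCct
Nfkb2: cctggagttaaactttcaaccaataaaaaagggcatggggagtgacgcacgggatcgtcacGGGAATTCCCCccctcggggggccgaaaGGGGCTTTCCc

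In *Nfkbia* the match ran from 29 to 20 bases before the start. In *Tnfaip3* matches began 125 and 12 bases before it, and in *Nfkb2* 39 and 11 bases before it, the first of these being part of an overlapping run that matched on both strands. The windows of other *Nfkb2* starts held further matches. A match is a run of letters and no evidence of binding. The windows of *Tnf*, *Tnfrsf1a*, *Tnfrsf1b*, *Birc3* and *Traf1* did not hold these letters.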

How the data were processed

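Bulk RNA libraries of mouse hamstring (poly(A), strand-specific kit) were grouped by treatment, mouse and side in the sample labels. The deposited values are normalized counts, a non-negative signal scaled by the authors with a factor for each library. The submitters' processing notes name STAR 2.7.8a, limma and the build mm39 (GRCm39), but 99.0% of 25652 matched genes carried GENCODE M21 (GRCm38) coordinates, so GRCm38 is given. The counter and scaling are not given in the sources used here. Only 74.6% to 76.5% of the low values fell on a multiple of the step (within 0.02 steps), so implied reads are approximate and served only for the limma-voom alternative, the counting intervals and the floor. A floor of 3 reads equalled 0.0324 to 0.364 normalized counts. No column was left unused (0).

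Genes with a mean of at least 0.5 were tested on log2(normalized count + 0.5) with limma 3.58.1 (R 4.3.3, mean trend, 4 groups in 1 fit), with Benjamini-Hochberg adjustment over 16414 genes. Legs with the same mouse label come from 1 animal. Their deviations from the group means correlated at 0.12, 0.16, 0.097, -0.026 and -0.37 in m862 to m866. The replicates are separate mice, except in PBS-only mice. Named genes were the 10 members, the called gene with the largest change between the legs in each pathway list, every pathway gene called lower there (0 genes), and the 3 genes most like each of *Tnf*, *Tnfrsf1b* and *Nfkbia*, of which 1 is not reported here. The members, lists and tests were chosen with earlier results of these data known. The limma fit was tested on simulated data, and the exact sign-flip test on made-up numbers with known answers. Promoters are from RefSeq.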

Additional observations from a re-analysis of the deposited data

Results flagged for a closer look

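In groups of 4 or 5 libraries, 8 of 36 sets of values held 1 library far from the others by Dixon's ratio, which chance alone gives in about 1 of 20 sets, and the sets share libraries. The HRS leg of m864 was the far one in 5 of them: *Tnf* at 19.5 against 4.55 to 6.57 in the other HRS legs, *Nfkbia* at 119 (49.7 to 65.6), *Nfkb1* at 89 (52 to 59.4), *Birc3* at 62.2 (19.6 to 30.6) and *Traf1* at 41.2 (11.1 to 17.6). The PBS leg of the same mouse was far for *Tnf*, at 0.600 against 0.0588 to 0.189, on an implied 13 reads. *Tnfrsf1a* was at 56 in the PBS leg of m866, against 28.4 to 31.8 in the other PBS legs. The log2 ratio of *Nfkb2* to *Nfkb1* was -0.61 in the HRS leg of m866, against -0.16 to -0.13 in the other HRS legs.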

How the results depend on the processing

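With 25 alternatives in all, the members called stayed at 9 to 10 for HRS legs against PBS legs and against PBS-only mice, at 0 for PBS legs against PBS-only mice and at 10 for HRS-MBP against PBS-only mice. With mouse as a replicate block in the 10 paired libraries, 9 were called, and the block changed no member's call. *Nfkb1* was called under rescaling to equal totals and under limma-voom only. For HRS-MBP against HRS legs, array weights gave 2 called, *Tnf* and *Traf1*, and leaving out 1 mouse or library gave 0 to 4, the 4 without m864. Calls over all tested genes, 76 in the reported fit, were 886 with array weights and 562 without m864. A pseudocount of 2 lowered the rise in the *Tnfrsf1b* to *Tnfrsf1a* log2 ratio from 1.84 to 1.71, and leaving out a mouse gave 1.83 to 1.86. No called value changed sign, and 22 uncalled fold changes of PBS legs against PBS-only mice did. Among all genes called between the legs, 73% were higher, against 92.8% after rescaling, 91.6% under limma-voom and 56.2% under quantile normalization, and the median of all tested genes was -0.16 under the last. The cause was not tested. Depth limits *Tnf* and *Traf1* in PBS muscle, and 2 mice limit the PBS-only and HRS-MBP groups.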
